A study of Homo sapiens with 9 samples.

Results

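The keratins and the claudins of HepG2 cells were described across a dose series of recombinant SPARC. Members were taken by gene symbol from the array's annotation, as KRT followed by a number with or without a letter A to C, or CLDN followed by a number. Of 17687 genes with a symbol, 69 were members, 45 of them keratins and 24 claudins. Each was read by 1 transcript cluster, the array's unit for a gene's transcripts. KRT6A, KRT6B, KRT12, KRT15, KRT17, KRT20, KRT34, KRT81, KRT82 and KRT86 were not analysed here. HepG2 is an established human liver cancer cell line that keeps many hepatocyte features, and a result from it is a result from 1 line. The 3 groups were untreated HepG2, HepG2 given 200 ng/ml recombinant SPARC and HepG2 given 800 ng/ml, each with 3 arrays of RNA taken 24 h after treatment. SPARC is a secreted glycoprotein of the extracellular matrix. The labels' extraction protocol mentions only the higher dose, while the sample labels give both.

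Keratins are the intermediate filament proteins of epithelial cells, and a filament needs a type I keratin (such as KRT18, KRT19 or KRT14) paired with a type II keratin (such as KRT8, KRT7 or KRT5). Hepatocytes are known for the pair of KRT8 and KRT18, bile duct cells add KRT7 and KRT19, stratified epithelia such as skin use other pairs, and hair shafts and their root sheaths have a set of their own. Claudins are membrane proteins with 4 transmembrane segments that form the strands of tight junctions, where some seal the gap between cells and others make it permeable to ions or water. In the liver, tight junctions separate bile canaliculi from blood, and CLDN1 is one of the claudins found there.

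Promoters with a TATA box made up a larger share of the keratins than of the claudins. RefSeq promoters of assembly GRCh38.p14, given here as the 250 bases before the gene's start, were found for 49 of the 69 members, 30 keratins and 19 claudins, among 27305 promoters in all. For each symbol 1 promoter was read. KRT7, KRT18, KRT19, KRT23 and KRT80 were among the keratins without one, so the 30 are mostly keratins of skin and hair. TATAAA, the core of the TATA box that positions transcription starts, was present on either strand in 18 of 30 keratin promoters (60%), in 1 of 19 claudin promoters (5.26%, CLDN17) and in 11.1% of all promoters. On the gene's own strand and with its first base 20 to 40 bases before the start, it was present in 14 of 30 keratin promoters (46.7%), in 0 of 19 claudin promoters and in 2.55% of all. CCAAT, searched on both strands like the motifs that follow, was in 43.3% of keratin promoters, 57.9% of claudin promoters and 33% of all, and GGGCGG, the GC box, was in 13.3%, 36.8% and 42.3%. The AP-1 site TGANTCA was in 0 of 30 keratin promoters, 21.1% of claudin promoters and 6.6% of all, and CAGGTG, an E-box bound by Snail repressors, was in 20%, 10.5% and 17.5%. None of these motifs overlaps another in the stretches printed here, and a match describes letters only.
The 6 promoters printed belong to members whose signals recur through the results: KRT8 and CLDN1 with high signals, KRT35 and KRT76 as keratins with a TATA box, and CLDN14 and CLDN18, which had the smallest p-values between the doses without untreated replicate 2. Each is written 5′ to 3′ on the gene's strand, with the matched motifs in capitals: TATAAA and CCAAT in KRT35, TATAAA in KRT76, GGGCGG and its reverse complement CCGCCC in CLDN1, ATTGG, the reverse complement of CCAAT, in CLDN14, and CAGGTG in CLDN18. The KRT8 stretch printed has none of the motifs searched. Whether HepG2 cells start KRT8 transcripts there was not tested. The positions are chr12:52926470-52926719, chr17:41481152-41481401, chr12:52777346-52777595, chr3:190322447-190322696 and chr21:36576570-36576819, all on the minus strand, and chr3:137998566-137998815 on the plus strand.
KRT8: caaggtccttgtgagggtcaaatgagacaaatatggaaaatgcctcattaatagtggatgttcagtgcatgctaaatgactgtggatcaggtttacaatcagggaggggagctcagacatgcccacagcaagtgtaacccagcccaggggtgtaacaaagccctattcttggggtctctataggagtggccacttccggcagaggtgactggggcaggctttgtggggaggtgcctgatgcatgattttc
KRT35: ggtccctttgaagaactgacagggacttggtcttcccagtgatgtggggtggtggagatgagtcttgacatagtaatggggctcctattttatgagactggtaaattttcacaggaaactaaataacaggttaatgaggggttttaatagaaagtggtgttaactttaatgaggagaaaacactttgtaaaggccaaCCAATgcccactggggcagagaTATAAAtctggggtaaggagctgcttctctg
KRT76: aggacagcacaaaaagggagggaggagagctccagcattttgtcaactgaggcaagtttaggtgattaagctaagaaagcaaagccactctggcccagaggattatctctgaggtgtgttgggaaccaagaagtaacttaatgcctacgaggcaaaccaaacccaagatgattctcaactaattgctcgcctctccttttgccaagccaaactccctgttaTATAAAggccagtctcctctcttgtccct
CLDN1: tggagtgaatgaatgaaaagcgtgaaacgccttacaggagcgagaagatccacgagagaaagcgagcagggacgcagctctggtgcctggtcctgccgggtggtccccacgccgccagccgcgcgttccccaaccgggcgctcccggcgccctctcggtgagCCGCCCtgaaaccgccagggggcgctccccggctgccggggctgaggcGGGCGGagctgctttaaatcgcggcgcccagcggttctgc
CLDN14: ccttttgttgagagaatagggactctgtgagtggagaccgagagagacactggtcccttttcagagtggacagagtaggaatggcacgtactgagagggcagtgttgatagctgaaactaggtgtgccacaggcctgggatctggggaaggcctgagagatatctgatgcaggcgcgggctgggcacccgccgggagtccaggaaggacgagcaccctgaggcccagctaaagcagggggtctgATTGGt
CLDN18: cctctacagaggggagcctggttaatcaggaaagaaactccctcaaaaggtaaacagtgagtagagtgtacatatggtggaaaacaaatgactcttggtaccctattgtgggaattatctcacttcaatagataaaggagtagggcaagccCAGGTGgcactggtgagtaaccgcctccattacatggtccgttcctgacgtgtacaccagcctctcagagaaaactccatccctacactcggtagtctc
The TATA box lies 31 bases before the start in KRT35 and 29 in KRT76. CLDN1 carries its GC boxes 88 and 40 bases before the start and is the richest of the 6 in G and C, at 68.8%, against 50.4% in KRT8 and 43.2% in KRT35.

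The array signals are log2 values, so a difference of 1 is a 2-fold difference. Signals of different genes come from different probes and were not set against each other as amounts. The table holds no detection calls, so whether a dim gene lay above background could not be judged. Of the 9 arrays, untreated replicate 2 stood apart: it correlated with the others at 0.891 to 0.920, against 0.979 to 0.991 among the other 8, and its signals spread less, with an SD of 1.67 against 1.914 to 2.003. Comparisons of the members with the untreated group are therefore given with and without it. Markers of hepatocytes averaged 10.13 to 10.45 in every array. No label says that replicates were separate cultures, so a p-value reflects how far these arrays spread, and that spread may be technical. RNA was taken from whole cultures, where fewer cells of a type and less RNA per cell cannot be told apart.

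The members split by signal in untreated replicate 2. It was above the average of the other untreated arrays in 37 of 45 keratins and 17 of 24 claudins, and it was the highest of all 9 arrays for 33 keratins and 13 claudins. Over all genes, it was above that average in 8247 of 17687, the highest array in 32.5% and the lowest in 41.7%. The 6 members in the brightest of 4 equal bins of genes by signal, KRT8, KRT18, KRT19, KRT23, CLDN1 and CLDN6, were all lower in it. So were most genes of that bin, where only 242 of 4422 were higher. The median deviation was 0.59, 0.92, 1.43 and -0.79 for the keratins of the 4 bins from dim to bright (20, 18, 3 and 4 keratins), 0.67, 1.05, 0.03 and -0.86 for the claudins (7, 10, 5 and 2), and 0.38, 0.56, -0.51 and -0.82 for all genes. All 22 hair and root sheath keratins (14 type I and 8 type II) and all 10 stratified type II keratins were higher in this array. So were all 6 channel claudins, CLDN19 by only 0.03. Of the 6 stratified type I keratins, 3 were higher and 3 lower, the lower ones being KRT10 (-0.005), KRT13 (-0.38) and KRT24 (-0.10). Of all genes, 3417 of 4422 in the dimmest bin were higher, 3223 of 4422 in the next and 1365 of 4421 in the third. The largest deviations were 2.54 for CLDN25, 2.13 for KRT76 and 2.10 for KRT7 upward, and -1.96 for CLDN12 downward, in a bin where the other 9 claudins were higher.

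**Figure D1:**
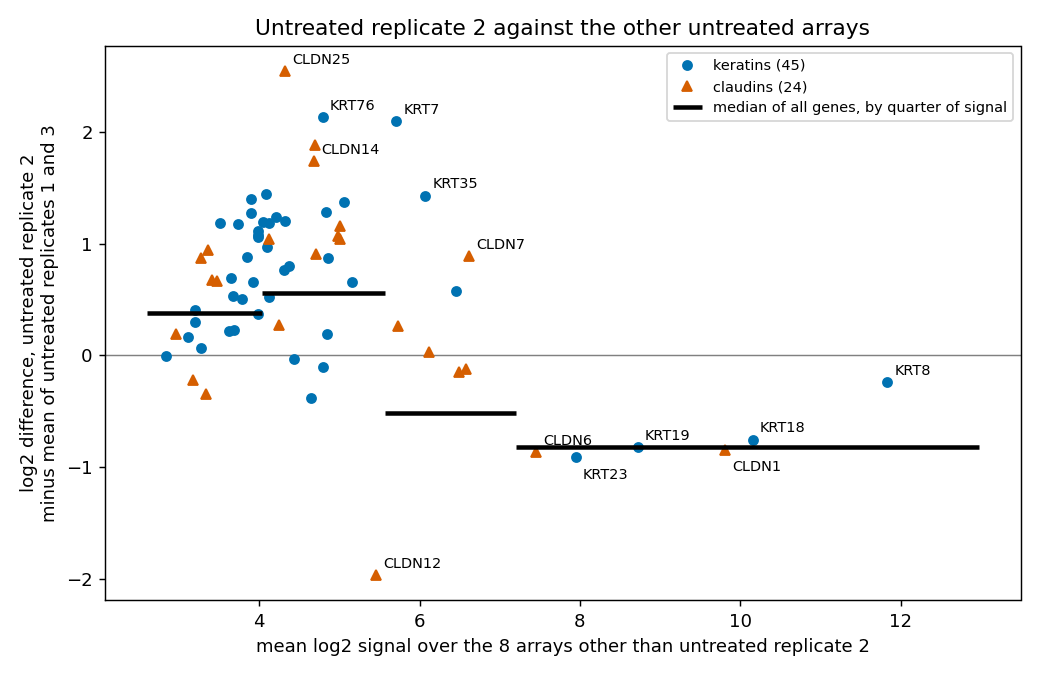
Deviation of untreated replicate 2 from the mean of untreated replicates 1 and 3 (log2, vertical axis) against the mean signal of the other 8 arrays (log2, horizontal axis), with 1 point per keratin or claudin and black lines for the median of all genes in each bin of signal. The 6 members of the brightest bin lie below 0, most dim members lie above 0, and CLDN12 is the lowest point at -1.96.

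Of the keratins of simple epithelia, KRT8, KRT18 and KRT19 varied little across the 8 other arrays, with SDs of 0.04, 0.14 and 0.11. KRT8, the type II partner of hepatocyte filaments, read 11.84, 11.60 and 11.83 in untreated replicates 1, 2 and 3, 11.76, 11.83 and 11.82 at 200 ng/ml and 11.88, 11.85 and 11.85 at 800 ng/ml. Its 3 values at 800 ng/ml were the highest 3 of the 9, by a margin of hundredths, and the difference from untreated was 0.11 ± 0.17 (SE) with all arrays and 0.03 ± 0.10 without untreated replicate 2. KRT18, its type I partner and its neighbour on chromosome 12 among the members, read 9.99, 9.26 and 10.02 in untreated replicates 1, 2 and 3, 10.21, 10.34 and 10.33 at 200 ng/ml and 10.04, 10.10 and 10.21 at 800 ng/ml. Both doses lay above all 3 untreated arrays, and all 200 ng/ml arrays lay above all 800 ng/ml arrays, the closest of them equal to 2 decimals. RefSeq lists 52 pseudogene symbols for KRT8, 68 for KRT18 and 5 for KRT19, whose transcripts the probes could also bind.

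KRT19, a type I keratin of bile ducts and other simple epithelia, read 8.51, 7.76 and 8.66 in untreated replicates 1, 2 and 3, 8.87, 8.83 and 8.71 at 200 ng/ml and 8.76, 8.73 and 8.70 at 800 ng/ml. All treated arrays were above all untreated arrays, closest where untreated replicate 3 lay just below the lowest treated value. KRT7, the type II keratin of ducts, read 5.61, 7.55 and 5.30 in untreated replicates 1, 2 and 3, 5.64, 6.05 and 5.87 at 200 ng/ml and 5.68, 6.09 and 5.45 at 800 ng/ml; untreated replicate 2 was the highest, the 200 ng/ml arrays lay above the other untreated ones and the 800 ng/ml arrays overlapped with them. KRT23, a type I keratin found in glandular epithelia and in several tumours, read 8.01, 7.09 and 7.999 in untreated replicates 1, 2 and 3, 7.90, 7.95 and 7.96 at 200 ng/ml and 7.88, 7.94 and 7.95 at 800 ng/ml, so that apart from untreated replicate 2 it varied by only 0.04 (SD over 8 arrays). KRT80, a type II keratin, read 4.47, 4.43 and 4.46 in untreated replicates 1, 2 and 3, 4.30, 4.21 and 4.81 at 200 ng/ml and 4.38, 4.43 and 4.43 at 800 ng/ml, with overlap between all groups.

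**Figure D2:**
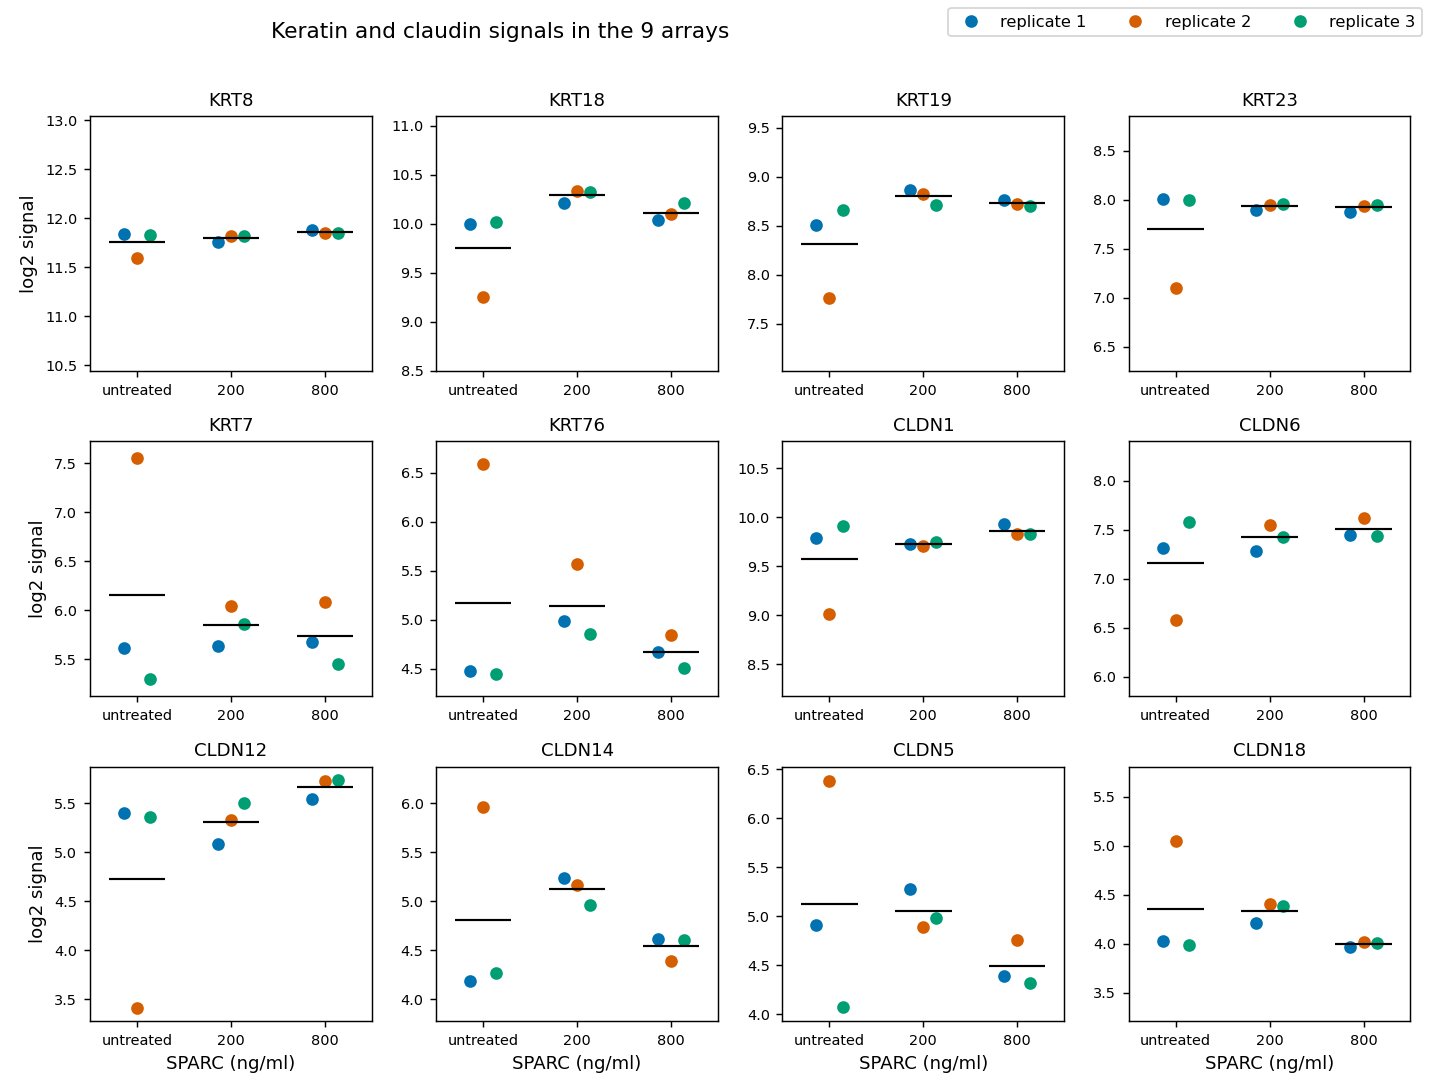
Log2 signal (vertical axis) of selected keratins and claudins in each of the 9 arrays, grouped as untreated, 200 ng/ml and 800 ng/ml SPARC, with points for arrays coloured by replicate number and lines for group means. KRT18 and KRT19 lie higher in the treated arrays than in the untreated ones, farthest above untreated replicate 2. Their lowest treated values, 10.04 and 8.70, lie just above untreated replicate 3, at 10.02 and 8.66. CLDN14 at 200 ng/ml lies between untreated replicate 2 and every other array.

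Among the barrier claudins, CLDN1, a main sealing claudin of liver and skin, read 9.79, 9.01 and 9.92 in untreated replicates 1, 2 and 3, 9.73, 9.70 and 9.75 at 200 ng/ml and 9.94, 9.83 and 9.83 at 800 ng/ml. All 800 ng/ml arrays were above all 200 ng/ml arrays, and both overlapped with the untreated ones. CLDN3, another sealing claudin, read 4.93, 6.11 and 4.97 in untreated replicates 1, 2 and 3, 5.25, 4.97 and 5.18 at 200 ng/ml and 5.08, 5.06 and 4.65 at 800 ng/ml, and CLDN11, a claudin of myelin and testis, ranged from 6.02 to 6.92 outside untreated replicate 2; neither separated the groups. CLDN14, a claudin of the inner ear that also occurs in liver and kidney, read 4.19, 5.96 and 4.27 in untreated replicates 1, 2 and 3, 5.24, 5.17 and 4.96 at 200 ng/ml and 4.62, 4.39 and 4.61 at 800 ng/ml. Apart from untreated replicate 2, the 3 arrays at 200 ng/ml were the highest. CLDN5, the claudin of endothelial cells, read 4.91, 6.38 and 4.08 in untreated replicates 1, 2 and 3, 5.28, 4.89 and 4.98 at 200 ng/ml and 4.39, 4.76 and 4.32 at 800 ng/ml, with the 200 ng/ml arrays above the 800 ng/ml ones. CLDN18, known from stomach and lung, read 4.03, 5.05 and 3.98 in untreated replicates 1, 2 and 3, 4.21, 4.41 and 4.39 at 200 ng/ml and 3.97, 4.02 and 4.01 at 800 ng/ml, again with all 200 ng/ml arrays above all 800 ng/ml arrays.

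CLDN6, a claudin of embryonic epithelia that tumours can re-express, read 7.32, 6.58 and 7.58 in untreated replicates 1, 2 and 3, 7.29, 7.55 and 7.43 at 200 ng/ml and 7.44, 7.62 and 7.44 at 800 ng/ml. Its groups overlapped. CLDN9 read 4.81, 5.73 and 4.52 in untreated replicates 1, 2 and 3, 5.25, 5.19 and 5.15 at 200 ng/ml and 5.21, 4.96 and 4.73 at 800 ng/ml, and without untreated replicate 2 all 200 ng/ml arrays were above the untreated ones. Of the claudins whose role depends on context, CLDN4 read 6.86, 6.58 and 6.55 in untreated replicates 1, 2 and 3, 6.30, 6.44 and 6.52 at 200 ng/ml and 6.73, 6.73 and 6.46 at 800 ng/ml, with the 200 ng/ml arrays below all untreated arrays, and CLDN7 read 6.41, 7.33 and 6.47 in untreated replicates 1, 2 and 3, 7.15, 6.56 and 6.79 at 200 ng/ml and 6.66, 6.63 and 6.25 at 800 ng/ml, with overlap.

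The channel claudins were mostly dim. CLDN2, which forms cation and water pores in leaky epithelia, read 4.49, 4.51 and 3.99 in untreated replicates 1, 2 and 3, 3.75, 4.29 and 4.50 at 200 ng/ml and 4.32, 4.23 and 4.41 at 800 ng/ml, with overlap between all groups. CLDN10, which forms cation or anion pores by isoform, read 3.53, 4.42 and 3.95 in untreated replicates 1, 2 and 3, 3.05, 3.19 and 3.57 at 200 ng/ml and 3.06, 3.67 and 3.33 at 800 ng/ml, and 1 array of each treated group lay above the lowest untreated value. CLDN15, a cation channel of the gut, read 6.13, 6.10 and 5.54 in untreated replicates 1, 2 and 3, 5.51, 5.58 and 5.77 at 200 ng/ml and 5.97, 5.63 and 5.73 at 800 ng/ml, with overlap. CLDN16 and CLDN19, the kidney pair needed for magnesium uptake, ranged from 3.02 to 4.41 and from 5.90 to 6.34 outside untreated replicate 2. CLDN12, a claudin without the usual PDZ-binding end, read 5.40, 3.41 and 5.36 in untreated replicates 1, 2 and 3, 5.09, 5.33 and 5.499 at 200 ng/ml and 5.55, 5.73 and 5.73 at 800 ng/ml. It was the 1 member of 69 whose 800 ng/ml replicates 2 and 3 were above every other array, a pattern of 558 of 17687 genes. None of the 69 did so by more than 0.5, against 36 of 17687 genes.

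The keratins of skin and hair were mostly dim, and most were highest in untreated replicate 2. KRT76, a type II keratin of the palate, read 4.48, 6.59 and 4.45 in untreated replicates 1, 2 and 3, 4.99, 5.57 and 4.86 at 200 ng/ml and 4.67, 4.84 and 4.50 at 800 ng/ml. Untreated replicate 2 was the highest, and all 200 ng/ml arrays were above the rest of the untreated ones and above the 800 ng/ml ones. KRT35, a type I hair keratin, read 5.78, 7.20 and 5.76 in untreated replicates 1, 2 and 3, 6.50, 6.14 and 6.16 at 200 ng/ml and 6.06, 5.98 and 6.14 at 800 ng/ml. After untreated replicate 2 came the 200 ng/ml arrays, then the 800 ng/ml arrays, the closest of them equal to 2 decimals, and then the other untreated ones. KRT27, a type I keratin of the inner root sheath, read 3.42, 3.74 and 3.25 in untreated replicates 1, 2 and 3, 2.92, 3.11 and 3.04 at 200 ng/ml and 3.35, 3.27 and 3.25 at 800 ng/ml, with all 200 ng/ml arrays the lowest of the 9. The other stratified and hair keratins had signals from 2.58 to 6.62 outside untreated replicate 2.

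A few more dim members recur in the comparisons. KRT14, the type I keratin of basal skin cells, read 3.62, 4.58 and 3.20 in untreated replicates 1, 2 and 3, 3.83, 3.70 and 4.19 at 200 ng/ml and 3.87, 3.69 and 3.80 at 800 ng/ml. KRT13, found in moist stratified epithelia, read 4.95, 4.57 and 4.96 in untreated replicates 1, 2 and 3, 4.71, 4.49 and 4.51 at 200 ng/ml and 4.16, 4.73 and 4.70 at 800 ng/ml. KRT36, a type I keratin of hair and tongue, read 3.91, 5.15 and 3.59 in untreated replicates 1, 2 and 3, 3.96, 4.45 and 4.15 at 200 ng/ml and 3.61, 3.59 and 3.93 at 800 ng/ml. KRT14 and KRT36 were highest in untreated replicate 2, whereas KRT13 lay within the range of the other arrays there. CLDN8, which seals or conducts by tissue, read 2.82, 4.16 and 3.76 in untreated replicates 1, 2 and 3, 3.72, 3.15 and 3.68 at 200 ng/ml and 2.92, 3.11 and 3.07 at 800 ng/ml. CLDN24, a claudin of little known function, read 5.18, 6.18 and 5.10 in untreated replicates 1, 2 and 3, 5.29, 5.05 and 5.22 at 200 ng/ml and 4.91, 4.97 and 4.30 at 800 ng/ml. CLDN25 read 4.18, 6.56 and 3.87 in untreated replicates 1, 2 and 3, 4.34, 4.42 and 4.33 at 200 ng/ml and 4.47, 4.39 and 4.60 at 800 ng/ml. All of these claudins were highest in untreated replicate 2, and the 2 doses overlapped for CLDN25 only.

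**Figure D3:**
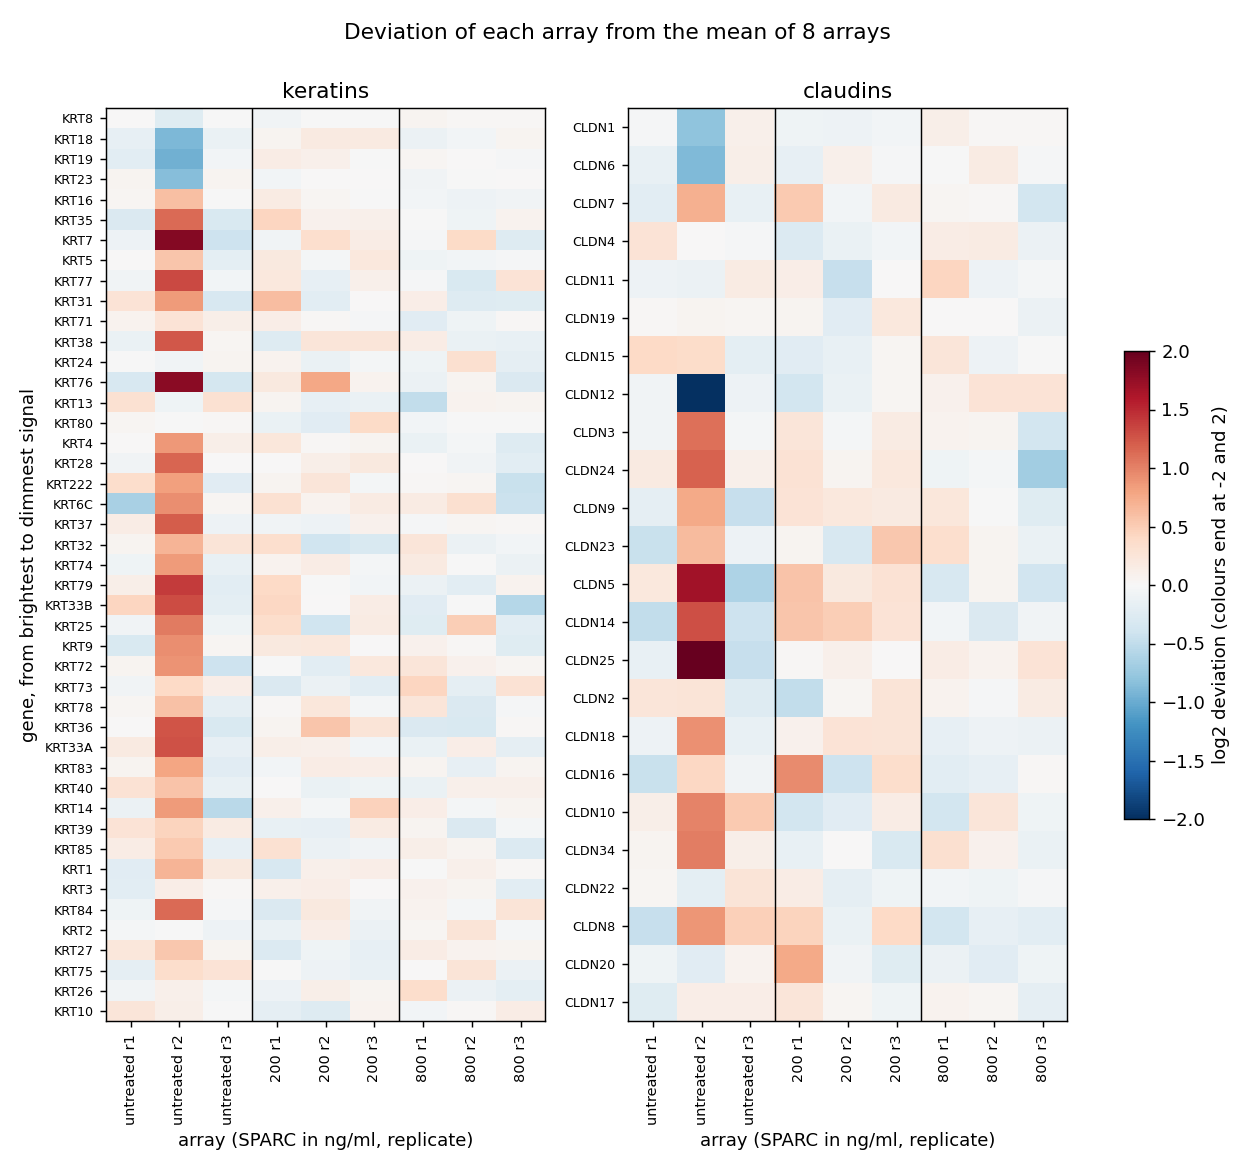
Log2 signal of each of the 69 members in each array (columns) minus that member's mean over the 8 arrays other than untreated replicate 2, with rows from the brightest to the dimmest member of each family and colours that end at -2 and 2. The column of untreated replicate 2 is high in most keratins and low in KRT8, KRT18, KRT19, KRT23, CLDN1, CLDN6 and CLDN12.

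The first comparison asked which members differed between 200 ng/ml SPARC and no treatment. No member passed an adjusted p under 0.05 in limma (smallest adjusted p 0.966), nor did any other gene (0%), and 3 of 69 members had an unadjusted p under 0.05, against 1.78% of all genes. Of these, 1 was higher and 2 were lower, against 0.741% and 1.04% of all genes. KRT18 was higher, with a difference of 0.54 ± 0.22 (adjusted p = 0.966). Its mean was 9.76 ± 0.43 (SD, n = 3) untreated and 10.29 ± 0.07 at 200 ng/ml. KRT27 was lower, at -0.45 ± 0.19 (adjusted p = 0.966), and CLDN10 was lower, at -0.69 ± 0.26 (adjusted p = 0.966). Groups did not overlap for 7 members, against 6.98% of all genes: 2 were higher, KRT18 and KRT19, and 5 were lower, KRT27, KRT39, KRT73, CLDN4 and CLDN34, against 3.92% and 3.06%. KRT19 had a difference of 0.49 ± 0.23 and CLDN4 of -0.24 ± 0.18. The median difference was -0.15 over the keratins, of which 10 of 45 were above 0, and -0.04 over the claudins, of which 10 of 24 were above 0. All genes had a median of 0.03, with 54.1% above 0.

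Without untreated replicate 2, the balance of signs turned. Then 29 of 45 keratins and 13 of 24 claudins were above 0, against 47.2% of all genes, and the medians were 0.07, 0.09 and -0.02 for keratins, claudins and all genes. Still no member passed the adjusted test (smallest adjusted p 0.309, CLDN14), and 11 had an unadjusted p under 0.05, against 11.3% of all genes. The 10 that were higher, against 5.29% of all genes, were KRT14, KRT18, KRT35, KRT36, KRT76, CLDN5, CLDN9, CLDN14, CLDN18 and CLDN25, and the 1 that was lower, against 6.03%, was KRT27. CLDN14 had the largest of these differences, 0.89 ± 0.13 (95% interval 0.60 to 1.19), against 0.32 ± 0.39 with all arrays. KRT76 went from -0.03 ± 0.48 to 0.68 ± 0.20 and KRT18 from 0.54 ± 0.22 to 0.29 ± 0.11 (adjusted p = 0.403). Among the other simple keratins, KRT7 went from -0.30 ± 0.47 to 0.39 ± 0.20, KRT19 was at 0.22 ± 0.11 and KRT8 at -0.03 ± 0.10. Groups did not overlap for 24 members, against 31.5% of all genes, with 15 higher and 9 lower, against 13.8% and 17.8%.

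Of the alternatives run, array weights, which scale each array by an estimate of its quality, were the 1 setting under which members passed. With limma's array weights, 14 members passed at 200 ng/ml, against 11.1% of all genes, 1 at 800 ng/ml, against 4.14%, and 0 between the doses, against 0.0339%. At 200 ng/ml, CLDN14 (0.87 ± 0.11), KRT6C (0.76 ± 0.17), CLDN8, CLDN23, KRT76, KRT35, CLDN9, CLDN18 and KRT18 (0.32 ± 0.08) were higher in that fit, and KRT13, CLDN15 (-0.42 ± 0.12), CLDN4, KRT27 and KRT40 were lower. At 800 ng/ml the member was KRT33B, at -0.68 ± 0.15. The weight was 10.7 for untreated replicate 1, 0.04 for untreated replicate 2 and 0.722 for untreated replicate 3, so the untreated mean of that fit was close to the value of 1 array. With untreated replicate 2 left out, the weights were 1.19 for both remaining untreated arrays and no member passed.

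**Figure D4:**
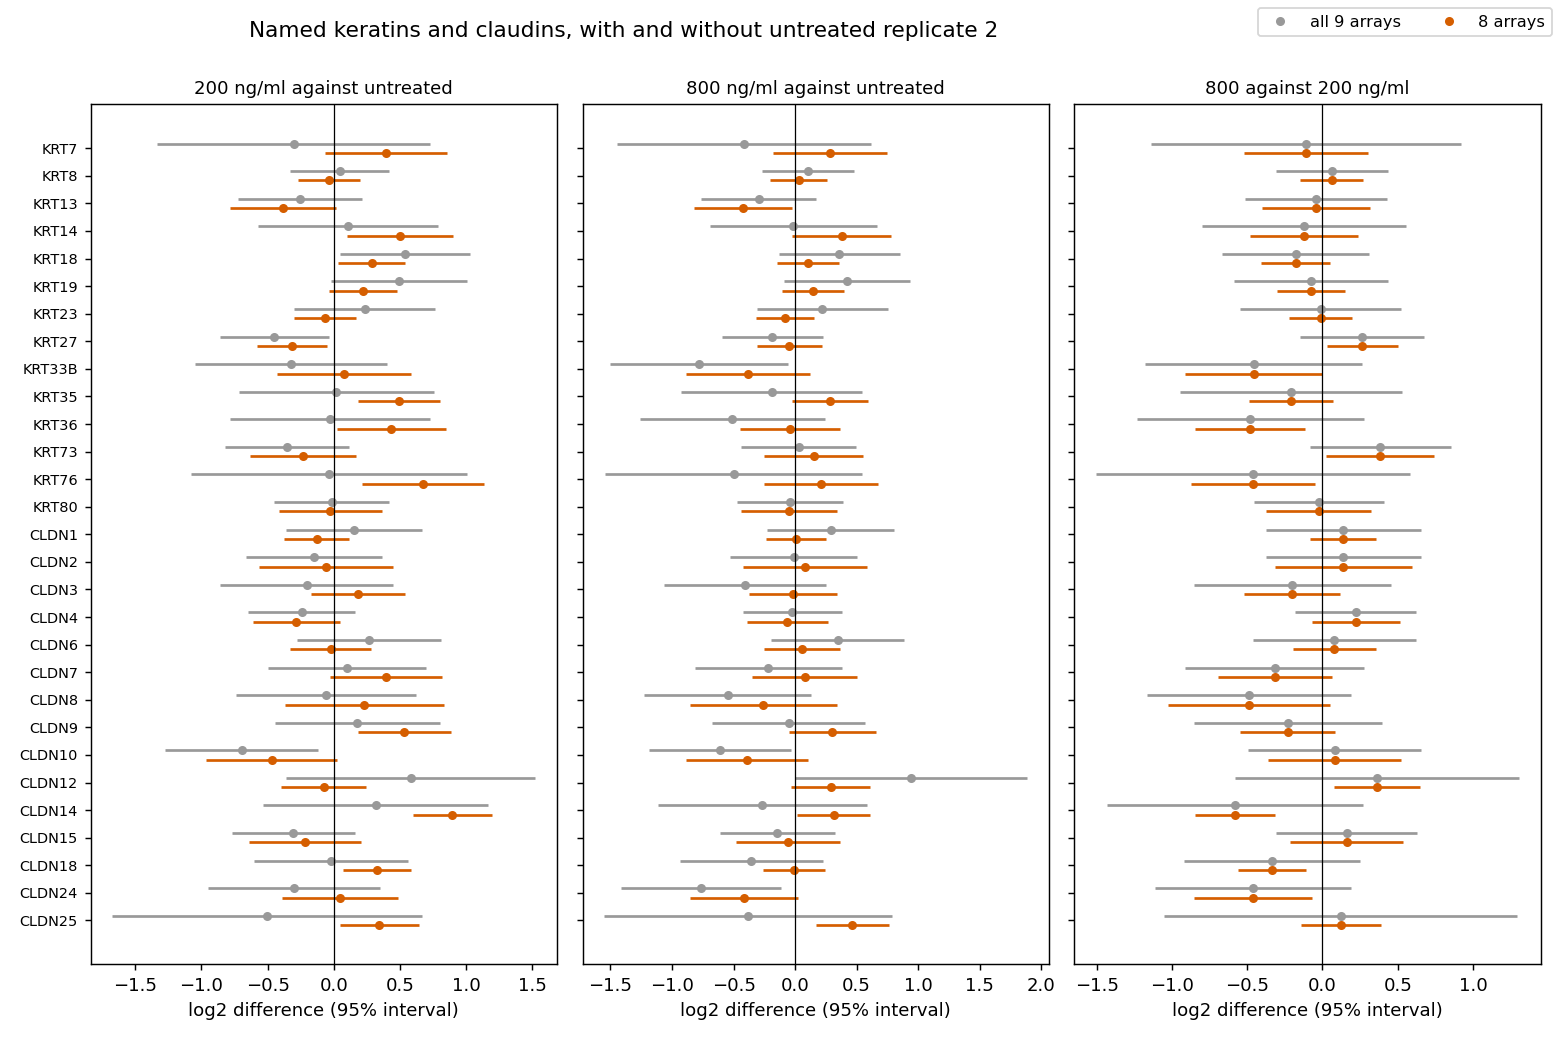
Log2 differences (horizontal axis) with 95% intervals of the named members for 200 ng/ml against untreated, 800 ng/ml against untreated and 800 against 200 ng/ml, fitted with all 9 arrays and without untreated replicate 2. Without that array most intervals are narrower and the points of CLDN14, CLDN25 and KRT76 lie farther right against untreated, while the differences between the doses stay in place.

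The second comparison set 800 ng/ml against no treatment. Again no member passed in limma (smallest adjusted p 0.659; 0% of all genes), and 4 of 69 had an unadjusted p under 0.05, against 4.17% of all genes. Of these, 1 was higher and 3 were lower, against 1.53% and 2.64%. CLDN12 was higher, at 0.94 ± 0.43 (adjusted p = 0.659). KRT33B, a type I hair keratin, was lower, at -0.78 ± 0.33, as were CLDN10, at -0.61 ± 0.26, and CLDN24, at -0.76 ± 0.30. Groups did not overlap for 10 members, against 11.2% of all genes: 4 were higher, KRT8, KRT18, KRT19 and CLDN12, and 6 were lower, KRT4, KRT16, KRT39, KRT71, CLDN19 and CLDN24, against 6.08% and 5.14%. KRT18 had a difference of 0.36 ± 0.22 and KRT19 of 0.42 ± 0.23. The medians were -0.22 for keratins (9 of 45 above 0), -0.09 for claudins (5 of 24) and 0.04 for all genes (54.6% above 0).

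Without untreated replicate 2, the medians at 800 ng/ml were 0.005 for keratins, 0.009 for claudins and -0.006 for all genes, with 23 of 45 keratins and 13 of 24 claudins above 0, against 48.2% of all genes. The difference was then 0.29 ± 0.14 for CLDN12, -0.38 ± 0.22 for KRT33B, -0.39 ± 0.22 for CLDN10 and -0.41 ± 0.19 for CLDN24. There were 3 members with an unadjusted p under 0.05, against 5.36% of all genes, 2 of them higher and 1 lower, against 2.53% and 2.83%: CLDN14 (0.31 ± 0.13) and CLDN25 (0.47 ± 0.13) were higher and KRT13 (-0.42 ± 0.18) was lower. With all arrays CLDN25 had been at -0.38 ± 0.53, with untreated replicate 2 at 6.56 and the other untreated arrays at 4.18 and 3.87. The smallest adjusted p in limma was 0.861, and 20 members had no overlap, against 22.3% of all genes, with 10 higher and 10 lower, against 10.5% and 11.8%. KRT18, at 0.11 ± 0.11, and KRT19, at 0.15 ± 0.11, were above 0 in both fits and at both doses, but these comparisons share the untreated arrays.

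The third comparison, of the 2 doses, does not use the untreated arrays for the difference itself, which was the same in both fits, while the SE came from the spread of all arrays fitted. More members were lower than higher at 800 ng/ml: 13 of 45 keratins and 10 of 24 claudins were above 0, against 52.3% of all genes. The medians were -0.08, -0.04 and 0.01 for keratins, claudins and all genes. Groups did not overlap for 16 members, against 21.9% of all genes. The 4 that were higher at 800 ng/ml, against 12.1% of all genes, were KRT8, KRT27, CLDN1 and CLDN12. The 12 that were lower, against 9.72%, were KRT4, KRT16, KRT18, KRT33B, KRT35, KRT36, KRT76, CLDN5, CLDN8, CLDN14, CLDN18 and CLDN24. With all arrays no member passed in limma (smallest adjusted p 0.999; 0% of all genes) and 0 had an unadjusted p under 0.05, against 2.41% of all genes, 1.12% higher and 1.29% lower.

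Without untreated replicate 2, 10 members had an unadjusted p under 0.05, against 15.3% of all genes, and none passed after adjustment. Of the 10, 3 were higher and 7 lower at 800 ng/ml, against 7.68% and 7.58% of all genes. CLDN14 was lower at 800 ng/ml, at -0.58 ± 0.12 (95% interval -0.85 to -0.31, adjusted p = 0.167), where the same difference had an SE of 0.39 with all arrays. CLDN18 was at -0.34 ± 0.10 (adjusted p = 0.218), KRT36 at -0.48 ± 0.16 and CLDN5 at -0.56 ± 0.22. CLDN12 was at 0.36 ± 0.13 in the other direction, with KRT27 at 0.26 ± 0.10 and KRT73, a type II keratin of the inner root sheath, at 0.38 ± 0.16. KRT18 had a difference of -0.18 ± 0.10 and KRT8 of 0.06 ± 0.09, so the partners of the hepatocyte pair differed in sign between the doses, neither past the test.

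The sign of a member's deviation in untreated replicate 2 often matched the sign of its 200 minus 800 ng/ml difference, about as often as over all genes. The 2 signs were the same in 30 of 45 keratins (66.7%) and 17 of 24 claudins (70.8%), and in 68.6% of all genes. The part of that array's deviation in these differences was not tested. The median 95% interval of a member reached 0.55 to either side with all arrays (a 1.47-fold difference) and 0.36 without untreated replicate 2 (1.28-fold), or 0.32 between the doses (1.25-fold).

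The partners of the claudins at the tight junction were read from a list of 22 genes, 18 of them measured. None passed in limma in any comparison, and with all arrays the partners at an unadjusted p under 0.05 were 0 of 18 at 200 ng/ml, against 1.78% of all genes, and 1, JAM2, both at 800 ng/ml, against 4.17%, and between the doses, against 2.41%. Without untreated replicate 2 they were AMOTL1, at 0.52 ± 0.12, and CGN at 200 ng/ml (11.3% of all genes), AMOTL1 and JAM2 at 800 ng/ml (5.36%) and JAM2 between the doses (15.3%). AMOTL1, a member of the angiomotin family, read 3.43, 5.87 and 3.62 in untreated replicates 1, 2 and 3. It read 4.13, 4.06 and 3.93 at 200 ng/ml and 4.08, 4.05 and 4.105 at 800 ng/ml. With all arrays its untreated mean was above the mean of each dose, so its direction turned with untreated replicate 2. TJP1, the scaffold ZO-1, read 8.05, 7.13 and 8.21 in untreated replicates 1, 2 and 3, 7.74, 8.18 and 8.03 at 200 ng/ml and 8.22, 8.12 and 8.19 at 800 ng/ml. OCLN, or occludin, read 8.34, 7.42 and 8.39 in untreated replicates 1, 2 and 3, 8.13, 8.51 and 8.35 at 200 ng/ml and 8.55, 8.50 and 8.54 at 800 ng/ml, so that all 800 ng/ml arrays were above all untreated arrays, at 0.48 ± 0.26 with all arrays and 0.16 ± 0.13 without untreated replicate 2. TJP3, the scaffold ZO-3, was lower at 800 ng/ml, at -0.31 ± 0.23 with all arrays. With OCLN it made 2 of 18 partners without overlap at 800 ng/ml, against 11.2% of all genes. TJP3 read 4.58, 5 and 4.55 in untreated replicates 1, 2 and 3 and 4.505, 4.19 and 4.504 at 800 ng/ml. Untreated replicate 2 thus widened its difference. Both TJP1 and OCLN were lowest in untreated replicate 2, like CLDN1. CGN, or cingulin, was lower at 200 ng/ml without overlap, at -0.41 ± 0.21 with all arrays and -0.45 ± 0.20 without untreated replicate 2. JAM2, a junctional adhesion molecule of endothelium and other cells, read 3.12, 4.37 and 3.69 in untreated replicates 1, 2 and 3, 3.70, 3.79 and 3.13 at 200 ng/ml and 4.16, 4.75 and 5.38 at 800 ng/ml. It was highest in 800 ng/ml replicates 2 and 3, with a difference of 1.22 ± 0.36 between the doses (adjusted p = 0.999). Against untreated it was at 1.04 ± 0.36 with all arrays and 1.36 ± 0.34 without untreated replicate 2. Those 2 arrays were also the highest in a list of 11 neural markers, GFAP among them. For 6 of the 11, both were above every other array, against 558 of 17687 genes. The list was chosen with earlier results of these data known, so this share is a description and no test. The list averaged 5.86 and 5.92 there against 4.39 to 4.85 in the other 7 arrays. No marker was at 0, but the lowest mean signal of any gene was 2.61, so this says nothing of detection. The part of these 2 arrays' neural signals in the JAM2 and CLDN12 differences was not tested. For CLDN12, 800 ng/ml replicate 1 also lay above every array outside its group, at 5.55 against 5.499 at most. For JAM2, at 4.16, it lay above all of those arrays but untreated replicate 2, at 4.37.

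The linkers that anchor keratins at desmosomes and hemidesmosomes were measured in full, 20 of 20, and 0 passed in limma in any comparison. DSP, the plakin that ties keratins to desmosomes, read 9.61, 8.87 and 9.59 in untreated replicates 1, 2 and 3, 9.39, 9.51 and 9.51 at 200 ng/ml and 9.62, 9.51 and 9.52 at 800 ng/ml, and JUP, or plakoglobin, read 7.76, 6.60 and 7.77 in untreated replicates 1, 2 and 3, 7.80, 7.63 and 7.50 at 200 ng/ml and 7.65, 7.75 and 7.67 at 800 ng/ml. Both were lowest in untreated replicate 2. Without it, DSP was at -0.13 ± 0.11 and JUP at -0.12 ± 0.12 for 200 ng/ml, and the 200 ng/ml arrays of DSP were below the remaining untreated ones. At an unadjusted p under 0.05 with all arrays, DSC3, a desmosomal cadherin, was the 1 linker at 800 ng/ml against untreated, at -0.71 ± 0.27 (4.17% of all genes). There was none at 200 ng/ml (1.78% of all genes) or between the doses (2.41%). Without untreated replicate 2 DSC3 was at -0.50 ± 0.24. The linker under 0.05 was then DSG4, another of these cadherins, at 0.49 ± 0.14 for 800 ng/ml against untreated (5.36% of all genes) and 0.35 ± 0.12 between the doses (15.3%).

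Of the other intermediate filament genes, 15 of 16 were measured and none passed in limma. At an unadjusted p under 0.05 with all arrays were NEFH and SYNC at 200 ng/ml (1.78% of all genes), NEFH and GFAP at 800 ng/ml (4.17%) and GFAP between the doses (2.41%). Without untreated replicate 2 these were NEFH and SYNM at 200 ng/ml (11.3% of all genes), NEFH, GFAP, NEFM and SYNM at 800 ng/ml (5.36%), and GFAP and NEFM between the doses (15.3%). NEFH, a neurofilament subunit, was lower at both doses, at -0.56 ± 0.22 and -0.61 ± 0.22 with all arrays and -0.36 ± 0.16 and -0.42 ± 0.16 without untreated replicate 2, in comparisons that share the untreated arrays. SYNC, or syncoilin, was at -0.91 ± 0.38 and -0.37 ± 0.17 at 200 ng/ml. GFAP, the filament of astrocytes, read 4.50, 5.58 and 4.97 in untreated replicates 1, 2 and 3, 5.03, 4.95 and 5.21 at 200 ng/ml and 4.54, 7.88 and 7.75 at 800 ng/ml, and VIM, the filament of mesenchymal cells, read 4.78, 5.23 and 4.16 in untreated replicates 1, 2 and 3, 5.04, 4.52 and 4.75 at 200 ng/ml and 4.13, 5.78 and 5.38 at 800 ng/ml. Both were highest in 800 ng/ml replicates 2 and 3, the arrays in which the neural markers were high, whereas 800 ng/ml replicate 1 was within the range of the other arrays for GFAP and the lowest of the 9 for VIM. Among the keratins and claudins, replicates 2 and 3 at 800 ng/ml were the highest for CLDN12 only. There 800 ng/ml replicate 1 came next, at 5.55, against 5.499 in the highest array outside the 800 ng/ml group. Marker lists of several other cell types were high in untreated replicate 2, and so were most dim genes. Above the mean of the other untreated arrays were 3417 of 4422 genes in the dimmest bin and 3223 of 4422 in the next. Over all genes it was 8247 of 17687. The lists that follow had median signals from 3.50 to 4.997 over the other 8 arrays, within those bins. Keratinocyte markers averaged 5.08 there and 4.47 to 4.72 in the other 8 arrays, with 6 of 8 above the mean of the other untreated arrays, although SFN was lower, at 9.30 against 9.998 and 9.99. Fibroblast markers averaged 5.48 against 4.38 to 4.73 (6 of 6 above that mean), blood markers 6.90 against 6.14 to 6.39 (4 of 6) and endothelial markers 4.62 against 3.96 to 4.27 (5 of 6). No marker was at 0, which says nothing of detection, because the lowest mean signal of any gene over the other 8 arrays was 2.61. The part of these cell types in the signals of the skin keratins in untreated replicate 2 was not tested.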

How the data were processed

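Total RNA of the 9 samples was hybridised to 1-colour arrays, per the labels. The authors deposited log2 values, 1 for each array and transcript cluster, a scale read from the values' range because no label states it. R 3.0 is named in the submitters' processing notes, while how the values were normalized and filtered is not given in the sources used here. Of 21448 clusters, 17709 had 1 gene symbol and 3739 had none, and for a gene with several clusters the one with the highest mean was kept, which left 17687 genes. All 9 arrays entered 1 fit by group (limma 3.58.1, R 4.3.3; lmFit and eBayes, no filter), with Benjamini-Hochberg adjustment over all genes, a threshold of 0.05 and 95% intervals. The fit was tested on simulated data.

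The members and lists were chosen with earlier results of these data known. The text names the keratins and claudins of simple epithelia and, per comparison, the 4 members with the smallest p with all arrays and the 4 without untreated replicate 2. Of the partner lists it names TJP1, OCLN, DSP, JUP and VIM and genes among the 2 with the smallest p. Other members and partners are named to spell out a count, after their values were seen. Promoters and chromosomes are RefSeq's, matched by symbol. The alternatives were quantile normalization, median centring, leaving out dim genes, the mean of all clusters, a replicate block, a robust trended prior, only the arrays compared, array weights and leaving out each array. Precision is limited by how few arrays there are.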

Additional observations from a re-analysis of the deposited data

How the results depend on the processing

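The members past an adjusted p under 0.05 stayed at 0 under every alternative except array weights, which give noisy arrays less weight. With them 14 members passed at 200 ng/ml, 1 at 800 ng/ml and 0 between the doses, among 1971, 732 and 6 of all genes, and 28, 14 and 10 members had an unadjusted p under 0.05. The share of all genes at that unadjusted p was counted in 2 fits only. It was 1.78%, 4.17% and 2.41% with all arrays and 11.3%, 5.36% and 15.3% without untreated replicate 2. The member counts of the other settings, the replicate block included, therefore have no such share beside them and are not results about the members. Array weights with untreated replicate 2 left out, chosen after seeing the data like the other fits that combine a setting with leaving out that array, gave 12, 7 and 9 such members and no call. Quantile normalization gave 5 such members at 200 ng/ml and 1 between the doses, and 10 and 8 with untreated replicate 2 left out. Leaving out dim genes gave 1 and 2 at 200 and 800 ng/ml with the milder of 2 filters, and 1 and 0 with the stricter, which left a keratin median of 0.108 at 800 ng/ml. Fits of only the 6 arrays compared gave 1, 0 and 11. Leaving out each array in turn, the count ranged over 1 to 11, 0 to 13 and 0 to 10 members in the same order of comparisons. In these fits 0 to 12 genes passed at 800 ng/ml and 0 to 15 between the doses, the highest counts coming without 800 ng/ml replicate 1.

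The direction of many members against untreated depended on untreated replicate 2, bright ones such as KRT8, KRT23, CLDN1 and CLDN6 at 200 ng/ml included. Without it, 14 of 29 named members changed sign at 200 ng/ml, 10 at 800 ng/ml and 0 between the doses. With array weights the difference at 200 ng/ml was 0.64 for CLDN8, 0.61 for KRT76, 0.34 for CLDN18 and 0.32 for KRT36, all below 0 with arrays weighted equally. At 800 ng/ml it was 0.33 for CLDN14, 0.28 for KRT35 and 0.33 for CLDN25. Array weights with untreated replicate 2 left out gave 0.63 for KRT76, 0.34 for CLDN25, 0.36 for CLDN18 and 0.46 for KRT36 at 200 ng/ml, and 0.30 for CLDN14, 0.29 for KRT35 and 0.47 for CLDN25 at 800 ng/ml. Quantile normalization without that array gave 0.61 for KRT76 at 200 ng/ml, 0.31 for CLDN14 and 0.47 for CLDN25 at 800 ng/ml. Over the fits that leave out 1 array, the difference ranged from -0.40 to 0.68 for KRT76, -1.004 to 0.34 for CLDN25, -0.20 to 0.33 for CLDN18 and -0.34 to 0.44 for KRT36 at 200 ng/ml, and from -0.58 to 0.31 for CLDN14 and -0.88 to 0.47 for CLDN25 at 800 ng/ml. Why a setting moved a value was not tested.

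Replicates share numbers across groups in the labels, but same-numbered arrays deviated together with correlations of only -0.25 to 0.11, so the numbers were not taken to pair samples. With the replicate number as a block, 2, 4 and 0 members had an unadjusted p under 0.05. With the block and untreated replicate 2 left out there were 9, 3 and 9, and the differences were 0.52 for KRT76 at 200 ng/ml, 0.48 for CLDN25 and 0.46 for KRT14 at 800 ng/ml. With 3 against 3 arrays an exact two-sided permutation test cannot go below 0.10, and the lack of background signals limits what can be said of the dim members.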
